A study of Mus musculus with 24 samples.

Results

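Expression of 10 pluripotency genes was measured in mouse CCE embryonic stem cells after retinoic acid treatment and in mouse fetal head (FH). The genes Pou5f1, Nanog, Klf4, Zfp42, Esrrb, Utf1, Tdgf1, Sall4, Dppa4 and Fgf4 were taken by symbol out of 26225 annotated genes (GENCODE M1, 22380 of them protein-coding), and all 10 were found. CCE is a feeder-independent line of the 129/SvEv strain. It was differentiated without the cytokine LIF and with 0.266 uM retinoic acid for 5 days. The FH samples are whole heads of FVB/N fetuses at 14.5 dpc, a mixture of tissues that is mostly brain. RNA was depleted of ribosomal RNA with the RiboMinus kit in 14 libraries and with the Ribo-Zero kit in 2 libraries. Behind the RiboMinus libraries stood 7 preparations of cDNA (CCE 4, FH 3), made from hydrolysed RNA or by shearing of cDNA and each sequenced in Vienna and in Nijmegen. Sheared and hydrolysed preparations with the same number (CCE1, CCE2, FH1) share 1 depleted RNA, so that there are 2 depleted RNAs per tissue. FH2 went through 2 rounds of depletion and the others through 1. Between Vienna and Nijmegen, the log2 ratio of preparation 1 to preparation 2 correlated across genes at 0.639 for sheared CCE, but at -0.642 for hydrolysed CCE and -0.492 for hydrolysed FH, so that the numbers of the hydrolysed preparations may be crossed at 1 location. Values of single hydrolysed preparations below follow the numbers as listed. The CCE preparations are technical replicates of differentiated cells of 1 line, and no separate animals are stated for FH, so that p-values measure the spread between preparations only. Undifferentiated CCE cells were not analysed here. The values are therefore levels that remained after treatment, compared with FH, and not changes over the treatment.

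Embryonic stem cells renew themselves while a network of transcription factors around Oct4 (the product of Pou5f1), Nanog and Sox2 is active. LIF, acting through Stat3 and Klf4, helps to keep this network on in mouse cells. Retinoic acid, a ligand of nuclear receptors, drives stem cells out of this state, and Pou5f1 and Nanog are silenced as lineages form. In the fetus the network persists mainly in germ cells, while single members such as Klf4 and Esrrb have roles in other tissues.

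Upstream sequence was examined because the members shared a direction in most comparisons below. The RefSeq promoter windows (GRCm38.p6) hold entries for 8 of the 10 genes, all but Sall4 and Dppa4. In the 250 bases before each start, 4 motifs were searched on both strands, namely ATGCAAA (the core of the octamer that Oct4 binds), CATTGT (the core of Sox sites), AGGTCA (the core recognised by many nuclear receptors, retinoic acid receptors among them) and GGGCGG (the GC box). Some GC boxes overlap each other. Nanog, Pou5f1 and Esrrb have more than 1 window, 11 in all for the 8 genes, and a gene was counted where any of its windows held the motif. ATGCAAA was present in 2 of the 8 genes, Nanog and Zfp42, and in 4.65% of all 27025 genes (3 of 11 and 4.12% of 32851 windows). CATTGT was found in 2 genes, Nanog and Pou5f1, and in 12.2% of genes (3 of 11 and 10.7% of windows), for Pou5f1 in its other window, which is not shown. AGGTCA was found in Nanog and Pou5f1 and in 15.8% of genes (2 of 11 and 14.02% of windows). GGGCGG was found in 6 genes and in 35.4% of genes (6 of 11 and 32.7% of windows). No match was found for Esrrb, and a match describes letters and does not show binding.

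The stretch of Nanog is chr6:122707389-122707488 on the plus strand, and that of Pou5f1 is chr17:35505932-35506031 on the plus strand. For Zfp42 the whole 250 bases are shown, chr8:43307010-43307259 on the minus strand. Klf4, the gene with the opposite direction in RiboMinus libraries, is chr4:55532476-55532725 on the minus strand. All are written 5′ to 3′ and end at the base before the start, with motif matches on either strand in capitals.
Nanog: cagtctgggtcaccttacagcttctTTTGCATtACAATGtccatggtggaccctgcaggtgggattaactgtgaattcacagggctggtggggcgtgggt
Pou5f1: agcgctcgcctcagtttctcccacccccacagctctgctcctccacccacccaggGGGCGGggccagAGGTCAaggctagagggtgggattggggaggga
Zfp42: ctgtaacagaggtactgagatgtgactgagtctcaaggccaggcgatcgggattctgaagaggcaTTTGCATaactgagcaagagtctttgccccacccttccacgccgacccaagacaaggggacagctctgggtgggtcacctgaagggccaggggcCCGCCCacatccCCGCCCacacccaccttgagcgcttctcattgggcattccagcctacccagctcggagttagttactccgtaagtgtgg
Klf4: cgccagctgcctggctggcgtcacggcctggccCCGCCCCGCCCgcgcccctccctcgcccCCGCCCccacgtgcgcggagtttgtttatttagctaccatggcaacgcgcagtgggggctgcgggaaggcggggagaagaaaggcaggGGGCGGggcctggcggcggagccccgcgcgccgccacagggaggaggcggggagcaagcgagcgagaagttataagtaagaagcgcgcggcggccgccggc
In Nanog the reverse of the octamer core stands 75 bases before the start and is followed after a single base by the reverse of the Sox core. Pou5f1 has a GC box and AGGTCA within the last 45 bases. In Zfp42 the octamer core begins 185 bases before the start. Klf4 has only GC boxes.

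Only tags with a single place in the genome were deposited, which matters for these genes because several have near-copies elsewhere. Every exonic position was compared with the mm9 genome, allowing 2 mismatches for 36-nt tags (RiboMinus) and 3 for 51-nt tags (Ribo-Zero). A position with another match in this map is called out of reach here. Of the exonic positions of Utf1, Fgf4, Sall4 and Esrrb, 99.8%, 99.5%, 96.5% and 94.99% were reachable with 36-nt tags. For Pou5f1 and Klf4 the shares were 69.9% and 65.7%. Nanog had 38.2%, Zfp42 36.3%, Tdgf1 32.5% and Dppa4 17.9%. With 51-nt tags these last 4 reached 41.2%, 41.3%, 42.3% and 24.6%. Of all exonic tags of the 10 genes, 1.51% in RiboMinus and 1.76% in Ribo-Zero libraries lay at positions marked as having another match. The share was uneven, with 80 of 366 tags for Tdgf1 and 7 of 66 for Dppa4 in CCE Ribo-Zero, and 3 of the 5 RiboMinus tags of Dppa4, so that the map does not hold well for these genes. In CCE Ribo-Zero, 16 bins of 50 exonic bases of Zfp42 were wholly out of reach and held 17 tags, while its 7 fully reachable bins held 934. In Nanog, 20 such bins held 21 tags and 12 fully reachable bins held 519. In Dppa4, 16 bins out of reach held 5 tags and the 1 reachable bin held 1. Levels per reachable kb are thus given with this limit for Tdgf1 and Dppa4.

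**Figure D1:**
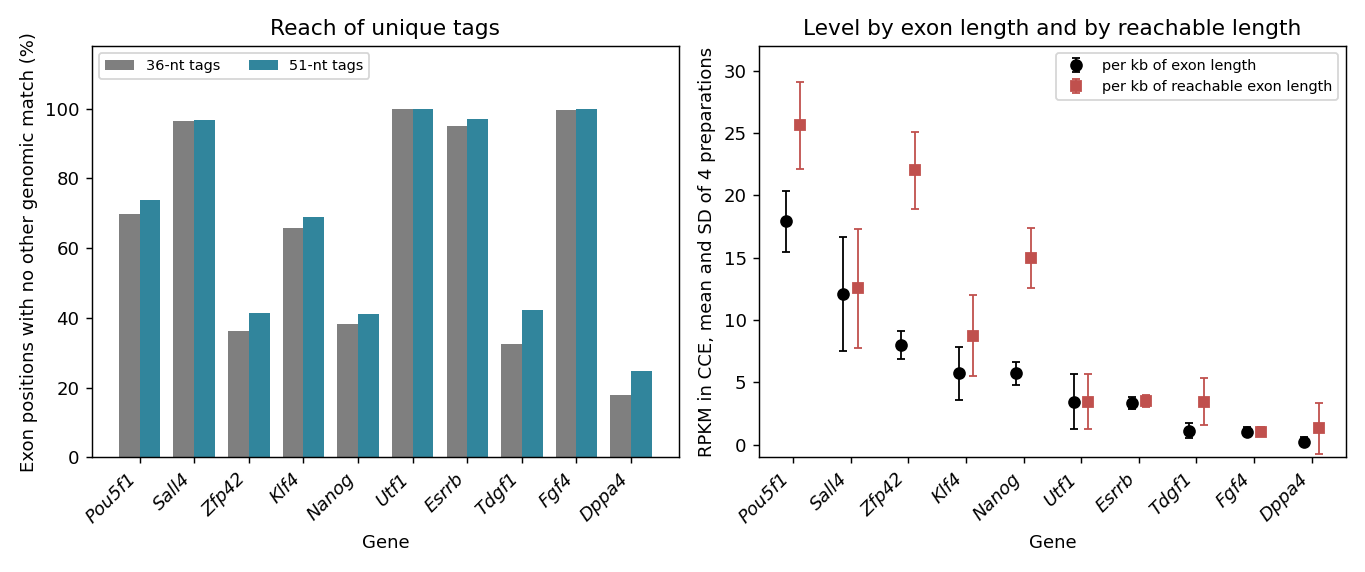
Left, percent of exonic positions with no other genomic match for 36-nt and 51-nt tags; right, RPKM in CCE RiboMinus (mean and SD, 4 preparations) per kb of exon and per kb of reachable exon. Zfp42 moved from 8.00 to 22.0 and Nanog from 5.73 to 15.02, while Utf1, Esrrb, Fgf4 and Sall4 stayed near their first value.

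Coding windows of 60 bases are shown beside their copies. Only windows that already matched a copy closely were considered, so that the few differences follow in part from this choice. Among these, each was chosen as the coding window whose copy held most CCE Ribo-Zero tags, 5 for Zfp42, 7 for Tdgf1 and 10 for Nanog. It is written in the sense of the gene with differing bases in capitals (mm9). For Zfp42 the window is chr8:44381029-44381088 on the minus strand and its copy chr15:93509670-93509729 on the minus strand, which differ at 2 bases. For Tdgf1 it is chr9:110843264-110843323 on the minus strand and chr16:3730910-3730969 on the plus strand, with 2 differences. For Nanog it is chr6:122662658-122662717 on the plus strand and chrX:87128994-87129053 on the plus strand, with 3 differences.
Zfp42: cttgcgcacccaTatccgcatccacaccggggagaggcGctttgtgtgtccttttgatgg
Zfp42 near-copy: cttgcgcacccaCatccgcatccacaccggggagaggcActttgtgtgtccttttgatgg
Tdgf1: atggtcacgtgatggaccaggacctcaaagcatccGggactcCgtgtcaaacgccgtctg
Tdgf1 near-copy: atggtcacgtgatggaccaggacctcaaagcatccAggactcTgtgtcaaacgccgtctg
Nanog: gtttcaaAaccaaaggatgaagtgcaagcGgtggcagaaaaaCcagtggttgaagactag
Nanog near-copy: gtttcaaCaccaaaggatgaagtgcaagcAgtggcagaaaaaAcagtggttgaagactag
Tags were also present at some of the matching loci. At the locus on chromosome 15 that matches Zfp42 at 1147 exonic positions (chr15:93509037-93510465), 55 tags of CCE RiboMinus and 568 of CCE Ribo-Zero were placed, and 0 of FH with either kit. The locus on chromosome 16 that matches Tdgf1 at 1200 positions held 12 and 210 CCE tags and 0 and 2 FH tags. The locus on the X chromosome that matches Nanog at 1332 positions held 1 and 17 CCE tags and 0 FH tags. These 3 loci overlap no annotated gene, and their tags were not added to the members. Their part in the members' levels was not tested.

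Among the core factors, Pou5f1 (chr17:35642982-35647721, 2256 exonic bases), which encodes Oct4, had the highest mean RPKM of the members in CCE RiboMinus preparations and was not seen in FH. In CCE Ribo-Zero, Zfp42 (27.0), Pou5f1 (26.8) and Sall4 (25.95) were close. RPKM, the tags per kb of merged exon scaled to the unique tags of the library, was 21.1 and 18.4 in the sheared and 17.0 and 15.3 in the hydrolysed CCE preparations. All 3 FH preparations had 0 tags, so that the groups did not overlap. Against a floor of 3 tags in the pooled FH libraries, the 523 tags of CCE were at least 133-fold higher. The log2 difference of FH minus CCE in RPKM + 1 was -4.23 ± 0.18 (SE), with an adjusted p of 8.9e-07 by limma. In Ribo-Zero, CCE had 1733 tags (RPKM 26.8, exact 95% Poisson interval 25.5 to 28.1) and FH had 0, at least 974-fold higher. Intervals and floors cover counting error only.

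Nanog (chr6:122657507-122664651, 2242 bases), the homeodomain factor that guards the naive state, had RPKM values of 5.82, 4.45, 6.03 and 6.63 in CCE, in the same order of preparations. A single tag was found in the 3 FH preparations (RPKM 0.103 in the hydrolysed FH2), and the groups did not overlap. The pooled ratio of CCE to FH was 129 with a counting interval of 22.9 to 5136, and the log2 difference was -2.69 ± 0.18 (adjusted p = 6.1e-06, limma). The Ribo-Zero RPKM of CCE was 10.6 (9.86 to 11.5), at least 385-fold above FH, which had 0 tags.

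Sall4 (chr2:168573832-168593443, 5536 bases), a zinc finger factor that binds Oct4 and Nanog, had the most tags of all members, 843 in CCE and 15 in FH over the RiboMinus libraries. In CCE its RPKM was 12.6, 18.3, 9.82 and 7.67, compared with 0.574, 0.0973 and 0.293 in the sheared FH1, hydrolysed FH1 and hydrolysed FH2 preparations. No FH value reached the CCE values (log2 difference -3.26 ± 0.29, adjusted p = 2.7e-05, limma). The 49 Ribo-Zero tags of FH stood against 4125 in CCE, a ratio of 142 (107 to 192). Sall4 overlaps a lincRNA on the other strand and the libraries carry no strand, so the tags of both cannot be told apart in the shared bases. Without those bases the log2 difference was -3.33.

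Zfp42 (Rex1; chr8:44380422-44392363, 1800 bases), a zinc finger gene widely used as a marker of naive stem cells, had RPKM values of 6.33, 8.42, 8.49 and 8.75 in CCE. FH had 0 RiboMinus tags (at least 47.9-fold, log2 difference -3.16 ± 0.18, adjusted p = 2.8e-06, limma). In Ribo-Zero CCE had 1397 tags at 520 distinct positions and FH had 1 tag, a ratio of 2356 with a counting interval from 422 upwards. Per reachable kb, Zfp42 moved from the third to the second place among the members.

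Esrrb and Klf4, transcription factors that act downstream of LIF and Wnt signals in stem cells, had the highest FH levels of the members. The FH level of Esrrb was low, with a pooled RiboMinus RPKM of 0.933. The RPKM of Esrrb (chr12:87702067-87862578, 6047 bases), an orphan nuclear receptor, reached 3.88, 3.30, 3.48 and 2.70 in CCE, with FH at 0.876, 0.935 and 0.956. The groups did not overlap and the log2 difference was -1.17 ± 0.17 (adjusted p = 0.00048, limma). Ribo-Zero gave 6.61 in CCE and 0.321 in FH, a ratio of 20.6 (16.7 to 25.7), while the pooled RiboMinus ratio was 3.57 (2.67 to 4.86). In FH much of the Esrrb signal was intronic. Of its FH tags, 33.3% in RiboMinus (exact 95% binomial interval 23.4 to 44.5) and 61.8% in Ribo-Zero (55.4 to 67.9) lay in introns, against 8.36% (5.43 to 12.2) and 23.5% (21.3 to 25.7) in CCE. Its introns hold 154465 bases, against 6047 exonic bases. Intron tags per base in FH were 0.0196 (RiboMinus) and 0.0633 (Ribo-Zero) of exon tags per base. Sall4 also had a higher intron share in FH (37.2%) than in CCE (7.09%) in Ribo-Zero, with 6.25% and 5.07% in RiboMinus.

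Klf4 (chr4:55540013-55545347, 3060 bases), a Krüppel-like factor that is also expressed in differentiating epithelia such as epidermis, was the only member called higher in FH. RPKM was 8.32, 6.64, 3.68 and 4.37 in the CCE preparations and 25.3, 11.1 and 12.2 in sheared FH1, hydrolysed FH1 and hydrolysed FH2. Every FH value lay above every CCE value, and the sheared preparations were the highest within each tissue. The log2 difference was 1.31 ± 0.34 (adjusted p = 0.011, limma). It was not called from the Nijmegen libraries alone (1.28, adjusted p = 0.065), although its size was close to that from Vienna (1.29, adjusted p = 0.0065). In Ribo-Zero the levels were almost equal, 2.82 in CCE (248 tags) and 2.79 in FH (413 tags), and the ratio of FH to CCE was 0.987 with an interval of 0.841 to 1.16. Its sign depended on the processing, with a log2 difference of -0.01 that became 0.37 when scaled by tags in protein-coding exons and -0.40 when tags with the same start and strand were counted once. The RiboMinus ratio was 2.58 (2.19 to 3.05), so that the intervals of the kits did not overlap. The kits also differ in tag length, RNA sample, sequencing site and fragmentation, as the Ribo-Zero libraries were hydrolysed only. The parts of these factors in the difference between the kits cannot be told apart.

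Utf1, Tdgf1, Fgf4 and Dppa4 had the fewest RiboMinus tags in CCE, from 5 to 53. Utf1 (chr7:147129688-147131011, 1227 bases), a chromatin-associated factor that is lost early in differentiation, had RPKM values of 3.27, 6.33, 3.27 and 0.968 in CCE. The lowest of these rests on 4 tags, and with the hydrolysed numbers crossed at Nijmegen the hydrolysed values became 2.79 and 1.37. FH had 1 tag (log2 difference -1.91 ± 0.38, adjusted p = 0.0029, limma), and the pooled ratio of tags was 40.3 (6.93 to 1622). In Ribo-Zero it reached 14.02 (12.8 to 15.3) in CCE with 494 tags and was at least 278-fold above FH, which had 0.

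Fgf4 (chr7:152047291-152051148, 3030 bases), the growth factor that pushes stem cells towards lineage commitment through Erk, had RPKM values of 0.774, 0.732, 1.49 and 1.18 in CCE and of 0.175, 0 and 0.0764 in FH. The groups did not overlap at these low levels (log2 difference -0.90 ± 0.16, adjusted p = 0.0014, limma). The pseudocount of 1 compresses this value, which was -2.70 with 0.1, and the pooled ratio was 16.4 (4.26 to 139). In Ribo-Zero the RPKM was 8.23 (7.64 to 8.86) in CCE and 0.0886 in FH, a ratio of 92.9 (54.0 to 175).

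Tdgf1 (chr9:110842114-110848662, 1925 bases) encodes Cripto, the co-receptor of Nodal. It had RPKM values of 0.870, 0.384, 1.69 and 1.54 in CCE and 1 tag in FH (log2 difference -0.97 ± 0.23, adjusted p = 0.0067, limma), with a pooled ratio of 22.8 (3.79 to 931). Vienna libraries alone did not give the call (-0.68, adjusted p = 0.077). None of its 30 RiboMinus tags in CCE lay in coding exons, and only 4 of 366 Ribo-Zero tags did. For RiboMinus tags, 146 of 513 coding bases (28.5%) and 480 of 1412 other exon bases were reachable. For Ribo-Zero tags, 204 coding bases and 610 other exon bases were. The Ribo-Zero RPKM of CCE was 0.272 in coding exons, against 6.62 over all exons. The level and ratios of Tdgf1 thus rest almost wholly on bases outside the coding part, and the cause was not tested. In Ribo-Zero, 315 of the 366 lay in the last merged exon and 49 in the first. The Ribo-Zero ratio of CCE to FH was 206 (69.9 to 1003).

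Dppa4 (chr16:48283848-48294405, 1534 bases), a nuclear protein of pluripotent cells, had 5 RiboMinus tags in CCE and 0 in FH and was not tested, as fewer than 10 tags were found over the 14 libraries. With genes of at least 1 tag admitted, its log2 difference was -0.26 (adjusted p = 0.32, limma), which at this depth shows neither a difference nor equal levels. In Ribo-Zero, 66 tags in CCE and 0 in FH gave an RPKM of 1.499 (1.16 to 1.91) and a ratio of at least 37.1. Of these 66 tags, 51 lay at exonic bases 251 to 300, and all 66 lay at 39 distinct positions. The level and ratio thus rest mainly on this short stretch. Of the Dppa4 tags, 51.8% (43.1 to 60.4) were intronic in CCE Ribo-Zero. This share is not corrected for reach, which was 24.6% of exonic positions with 51-nt tags.

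**Figure D2:**
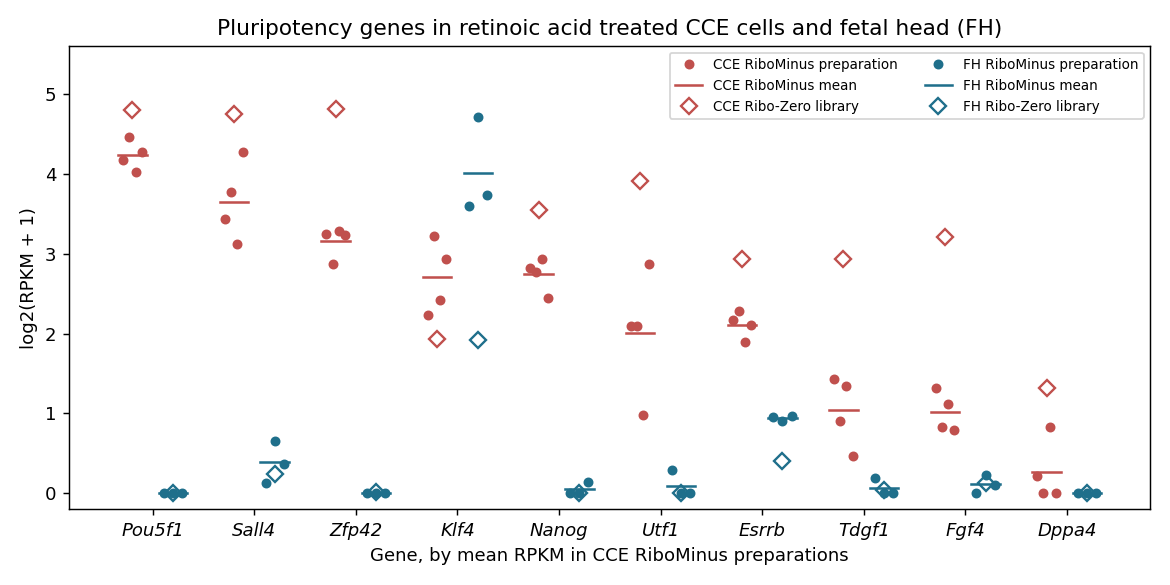
log2(RPKM + 1) of the 10 genes, with points for RiboMinus preparations (4 CCE, 3 FH), lines for their means and open diamonds for the single Ribo-Zero library of each tissue. Except for Klf4 and Dppa4, no FH preparation reached a CCE preparation from below, and Klf4 showed the opposite order in RiboMinus with nearly equal Ribo-Zero values.

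Of the 9 members tested, 8 were called higher in CCE and 1 higher in FH. Among all 16835 genes tested, 24.9% were called higher in CCE and 23.2% higher in FH, and the median log2 difference was -0.10, against -1.91 for the 9 members. For each of these 9 the groups did not overlap, and the exact two-sided permutation p was 0.0571, the smallest that 4 against 3 preparations allow. The preparations are not all independent, as some share a depleted RNA. With the preparations of each depleted RNA summed, an alternative added after seeing the data, 2 against 2 units gave the same 9 calls by limma in the same directions. These units follow the listed numbers. If the hydrolysed numbers are crossed at 1 location, each unit mixes both depleted RNAs of its tissue, so that these calls do not settle the question of independence. A crossed version of this sum was not run. In Ribo-Zero, 8 of the 10 members were at least 4-fold higher in CCE on the scale of RPKM + 1, against 2.46% of 18714 genes, and 0 were 4-fold higher in FH, against 2.85%. The members outside this limit were Klf4 and Dppa4. In bulk samples, fewer cells with a transcript and less of it per cell cannot be told apart.

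**Figure D3:**
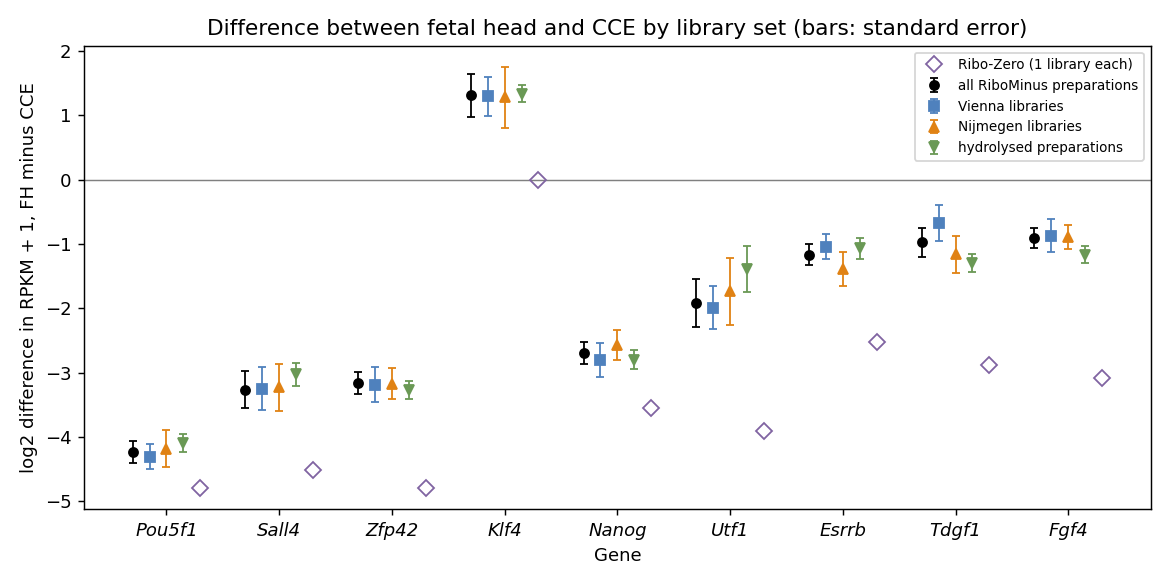
log2 difference in RPKM + 1 (FH minus CCE) of the 9 tested genes, from all RiboMinus preparations, each sequencing location, hydrolysed preparations (bars, SE) and the Ribo-Zero pair (no replicates). The sign was the same in every RiboMinus set, and for Klf4 the Ribo-Zero value was -0.01 against 1.31.

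The order of levels in CCE was examined over the 4 preparations, with RPKM as mean ± SD. By exon length it was Pou5f1 (17.9 ± 2.45), Sall4 (12.1 ± 4.60), Zfp42 (8.00 ± 1.12), Klf4 (5.75 ± 2.13), Nanog (5.73 ± 0.92), Utf1 (3.46 ± 2.20), Esrrb (3.34 ± 0.49), Tdgf1 (1.12 ± 0.61), Fgf4 (1.04 ± 0.36) and Dppa4 (0.234 ± 0.37). The only neighbours whose ranges did not overlap were Esrrb and Tdgf1. An exact sign-flip test cannot go below 0.125 with 4 preparations, and this value was reached for Pou5f1 over Sall4, Esrrb over Tdgf1 and Fgf4 over Dppa4. Per reachable kb, Pou5f1 (25.6 ± 3.51) was followed by Zfp42 (22.0 ± 3.09), Nanog (15.02 ± 2.41), Sall4 (12.5 ± 4.77) and Klf4 (8.76 ± 3.24). On that scale Zfp42 and Nanog did not overlap, nor did Klf4 and Esrrb.

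Fragmentation moved some members. In the fit with fragmentation as a term, whose coefficient was taken up after the data were seen, Klf4 was 0.87 ± 0.14 (log2) higher in sheared than in hydrolysed preparations (adjusted p = 0.0028, limma) and Sall4 0.61 ± 0.18 higher (adjusted p = 0.033, limma). The other 7 tested members were not called, with Utf1 at 0.51 (adjusted p = 0.27) and Tdgf1 at -0.46 (adjusted p = 0.070). Of the 16835 genes tested, 2171 (12.9%) were called higher in sheared and 3104 higher in hydrolysed preparations. With this term in the model the 9 calls between the tissues remained. The ratio of Vienna to Nijmegen in the pooled CCE libraries lay between 1.03 for Zfp42 and 1.36 for Utf1, apart from Tdgf1 at 0.628.

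The Ribo-Zero library gave higher levels than RiboMinus for most members in CCE. The ratio of Ribo-Zero to pooled RiboMinus RPKM was 7.57 (5.56 to 10.6) for Fgf4, 5.55 (3.82 to 8.34) for Tdgf1, 4.24 (3.19 to 5.74) for Utf1, 3.36 (2.88 to 3.93) for Zfp42 and 2.22 (2.07 to 2.40) for Sall4. Dppa4, with 5 RiboMinus tags, had 6.00 (2.45 to 19.09). Esrrb had 1.98, Nanog 1.83 and Pou5f1 1.51, and Klf4 went the other way with 0.510 (0.424 to 0.614). At least 2-fold higher levels in Ribo-Zero were thus found for 6 of the 10 members, against 18.3% of 13071 genes with an RPKM of at least 1 by either kit, and at least 2-fold lower levels for 0 members, against 24.4%. The median ratio was 0.865 over genes and 2.79 over members. Dppa4 passed this limit only through Ribo-Zero, where it is higher. Over the 12250 genes with an RPKM of at least 1 in RiboMinus, a limit added after seeing the data, 5 of 9 members and 14.4% of genes were at least 2-fold higher in Ribo-Zero, and the member median was 2.22. Corrected for the greater reach of 51-nt tags, the ratio was 4.26 for Tdgf1, 2.95 for Zfp42 and 7.54 for Fgf4. When tags with the same start and strand were counted once in a library, the ratio was taken to the mean of the RiboMinus preparations. It fell to 0.816 for Pou5f1, 1.47 for Nanog, 1.91 for Zfp42, 1.78 for Sall4, 4.01 for Utf1, 4.96 for Tdgf1 and 5.54 for Dppa4. It rose to 8.95 for Fgf4, 2.16 for Esrrb and 0.643 for Klf4. On this count 5 members were at least 2-fold higher, and the share over all genes is not given for it. The 1733 Ribo-Zero tags of Pou5f1 lay at 574 positions, while 91 tags lay at 75 in a RiboMinus library. Distinct starts made up 51.4% of all tags in CCE Ribo-Zero, 62.6% in the deeper FH Ribo-Zero library and 70.6% to 77.0% in CCE RiboMinus libraries. Sequencing depth and repeated copies of a tag cannot be told apart in this count. Their parts in these ratios were not tested, and the ratios are not read as lower levels in Ribo-Zero. The Ribo-Zero library was hydrolysed, while the RiboMinus pool holds sheared and hydrolysed libraries. Within that pool, the ratio of sheared to hydrolysed RPKM ran from 0 for Dppa4 and 0.393 for Tdgf1 to 2.13 for Utf1. Kit ratios to the hydrolysed libraries alone are not given. With 1 Ribo-Zero library of other CCE RNA, kit, fragmentation and culture cannot be told apart.

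**Figure D4:**
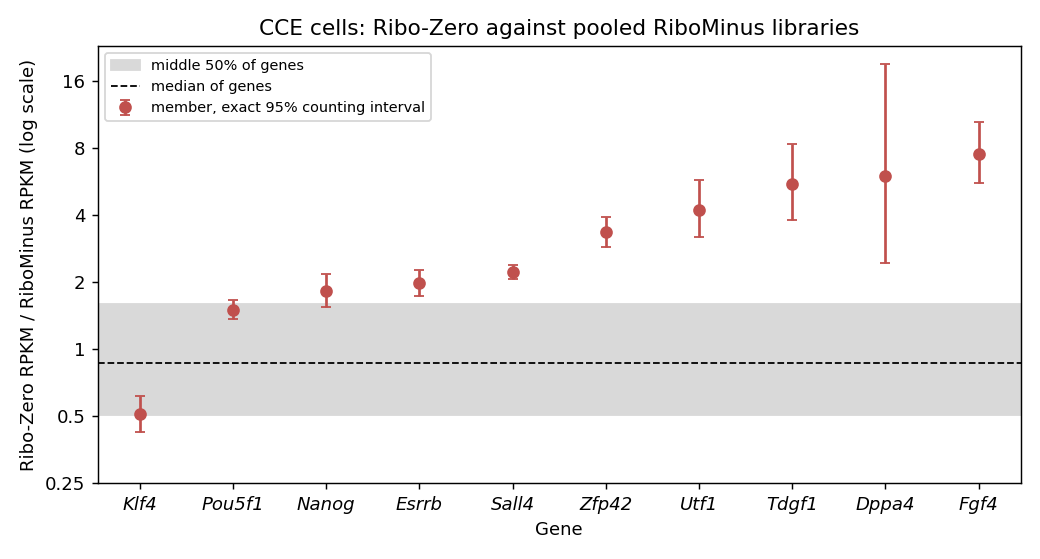
Ratio of Ribo-Zero to pooled RiboMinus RPKM in CCE for the 10 genes on a log scale, with exact 95% counting intervals. The dashed line is the median (0.865) and the band the middle 50% of genes (0.507 to 1.60). Klf4 lay at 0.510, and all others but Pou5f1 lay above the band.

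Along the exons, the CCE Ribo-Zero tags followed the reachable positions in Nanog and in the main block of Zfp42. Fgf4, reachable almost throughout, was covered over its whole length, with 604 of 716 tags in its last exon, which is mostly untranslated. In Pou5f1, 1660 of 1733 tags were in coding exons. Introns held few tags of Pou5f1 (0.631%, 0.315 to 1.13) and Utf1 (0.202%, 0.00511 to 1.12), and more of Zfp42 (24.9%, 22.9 to 26.9). With repeated starts counted once these shares were 1.71% for Pou5f1 and 43.1% for Zfp42. The shares are not scaled to intron length, which was 2484 bases for Pou5f1, 97 for Utf1 and 10142 for Zfp42. Intron tags per base were 0.00576, 0.0256 and 0.0588 of exon tags per base, in this order. With 51-nt tags, 73.8%, 100% and 41.3% of their exonic positions were reachable. Shares and densities are not corrected for this, and the reach of introns was not mapped. The cause of the differences in intron tags was not tested.

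**Figure D5:**
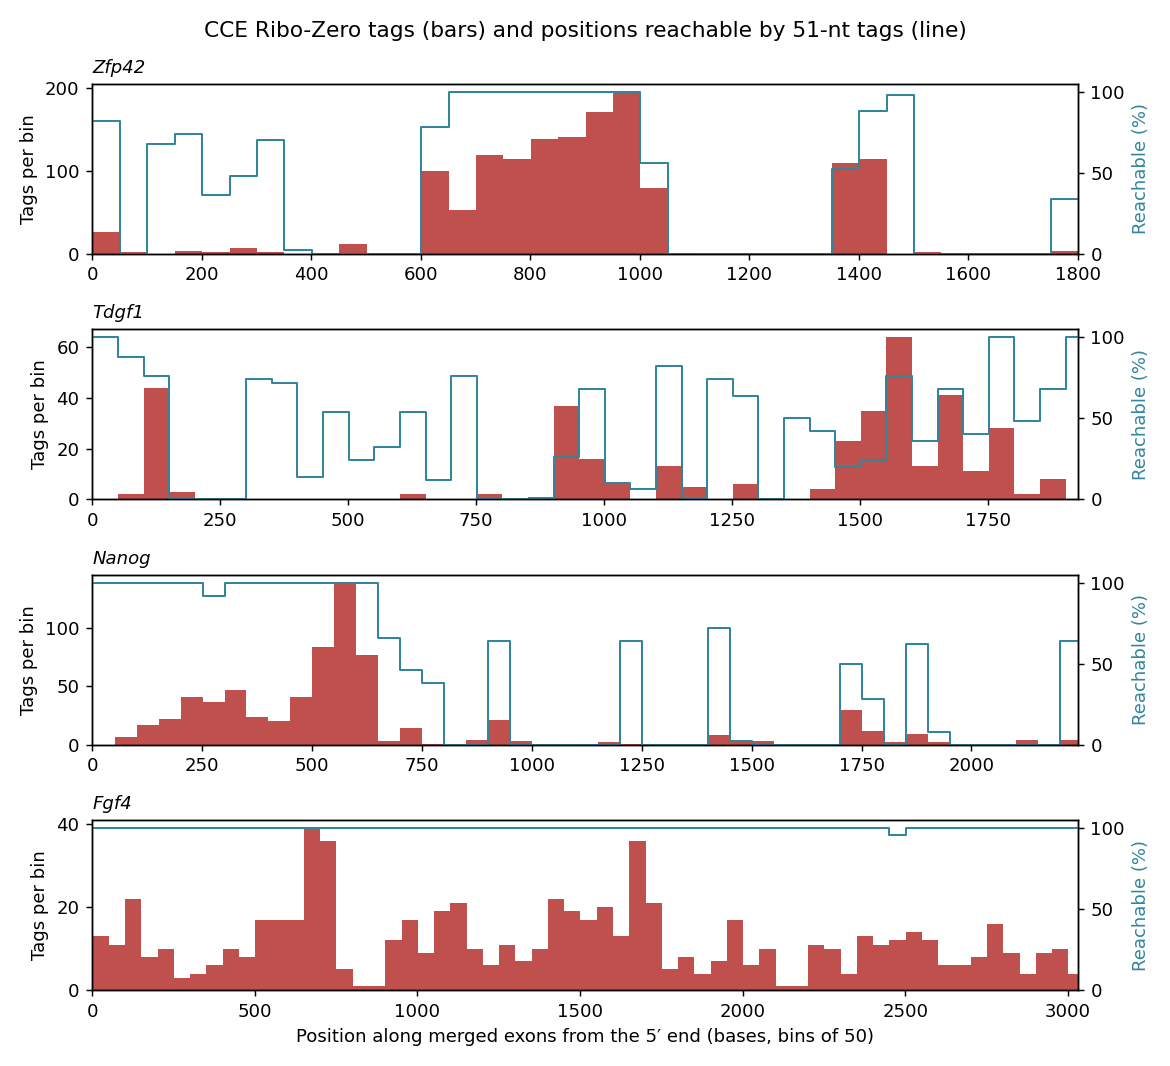
CCE Ribo-Zero tags per bin of 50 exonic bases (bars) and percent of positions reachable by 51-nt tags (line) along the merged exons of 4 genes, from the 5′ end. Bins out of reach in Zfp42 and Nanog held few or no tags, and Fgf4 was covered throughout.

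Other genes of the network were described from 5 lists with 69 genes, of which 64 were tested. Of these, 30 were called higher in CCE, 14 higher in FH and 20 were not called, with a median log2 difference of -0.48. The shares over all genes were 24.9% and 23.2%, with a median of -0.10. Across the alternatives run, 34 to 54 of them were called, against 44. In the list of stem cell enriched genes, 11 of 15 tested genes were higher in CCE and 1 higher in FH (median -1.23). Trim71, an RNA-binding protein and target of let-7, had a log2 difference of -4.28 ± 0.27 (adjusted p = 5.4e-06, limma), and Dppa5a had -3.08 ± 0.53 (adjusted p = 0.0014, limma). Dnmt3l, a cofactor of de novo DNA methylation, followed with -2.72 and Tex19.1 with -2.66. Spp1, the secreted osteopontin, was higher in FH (1.42, adjusted p = 0.0066, limma), but in Ribo-Zero its RPKM was 16.2 in CCE and 7.61 in FH.

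Of 15 naive factors tested, 5 were higher in CCE, 3 higher in FH and 7 not called (median -0.45), near the 24.9% and 23.2% of all genes. Tbx3 (-1.96), Tfcp2l1 (-1.84), Mybl2 (-1.11) and Klf5 (-0.80) were higher in CCE. Foxd3 (1.44), Sox2 (0.94) and Gbx2 (0.63), which also act in neural tissue, were higher in FH. The call of Sox2 was lost in 7 of its 23 alternatives that of Klf5 in 9 of 23, that of Gbx2 in 8 of 22 and that of Foxd3 in 1. In Ribo-Zero the order was the opposite for Sox2, with an RPKM of 42.7 in CCE and 21.4 in FH, and for Gbx2, with 1.29 and 1.02.

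In the LIF pathway, 5 of 8 genes were higher in CCE and 0 higher in FH (median -0.95). These were the receptor Lifr (-1.91), its feedback inhibitor Socs3 (-1.74), Stat3 (-1.22), Mycn (-1.06) and the receptor subunit Il6st (-0.84). Of these, the rule for named genes takes the first 4, and Il6st was added after its value was seen. Jak1, Jak2 and Myc were not called.

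Of 17 Nodal and Fgf signalling genes tested, 7 were higher in CCE and 4 higher in FH (median 0.15). The ligand Nodal (-2.75), its inhibitor Lefty1 (-3.27), its nuclear partner Foxh1 (-2.71) and the Erk phosphatase Dusp6 (-2.23) were higher in CCE, where the co-receptor Tdgf1 and the ligand Fgf4 were also found. The receptors Fgfr3 (2.07), Fgfr4 (1.82) and Fgfr2 (0.66) and the ligand Fgf8 (0.55) were higher in FH, where 4 of 17 is close to the 23.2% of all genes. Fgf8 had 12 Ribo-Zero tags in CCE and 2 in FH, the opposite order. Of the 9 tested genes of the primed epiblast, 2 were higher in CCE, Dnmt3b (-1.60) and Cdh2 (-0.47), although in Ribo-Zero Cdh2 had an RPKM of 11.6 in CCE and 14.6 in FH. A further 6 were higher in FH (median 1.69), with Zic2 (2.74), Otx2 (2.51), Pou3f1 (2.43) and Sox3 (1.84) furthest apart, all of which are also neural genes.

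The labels were checked against markers of other cells. Retinoic acid response genes, of which 9 of 12 were higher in CCE and 0 higher in FH, included Cyp26a1, which degrades retinoic acid, at an RPKM of 55.2 ± 27.8 in CCE and 4.09 ± 1.11 in FH. The summed RPKM of this list ranged from 237 to 288 in CCE preparations and from 94.2 to 157 in those of FH. Of 16 primitive endoderm markers, 12 were higher in CCE and 2 in FH, and their sum ranged from 493 to 677 in CCE, against 268 to 309 for FH. The 2 higher in FH, named after their values were seen, were Ttr, with a mean RPKM of 143 in FH and 9.13 in CCE, and Pdgfra, with 5.25 and 1.37. Col4a2 and Sparc led with 137 ± 46.4 and 135 ± 34.3 in CCE. Gata4 and Hnf4a had 0 RiboMinus tags in FH. All 11 fetal brain markers in the annotation were higher in FH (sum 445 to 687, against 36.1 to 41.3 in CCE), and Neurod6 had 0 tags in CCE. Stmn2 was at 218 in FH and 14.7 in CCE. Among germ cell markers, 4 of 5 tested were higher in CCE, with Mael at 3.36 ± 1.74 and Ddx4 at 2.20 ± 0.73. Of these 4, 2 lost the call in at least 1 alternative. The germ cell markers summed to 3.97 to 9.61 in CCE, against 0.389 to 0.868 for FH. The part of primitive endoderm or germ cell-like cells in the members' levels was not tested.

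The 5 genes whose log2(RPKM + 1) was most like that of Pou5f1 over the 16 libraries, among 9189 genes with a pooled CCE RiboMinus RPKM over 3, were Gata4 (r = 0.993), Upk3b (0.991), Ncapd2 (0.991), Foxo4 (0.991) and Crispld2 (0.990). Gata4, an endoderm factor, had 651 tags in CCE RiboMinus and 0 in FH. Nanog ranked 14 (0.985), Zfp42 34, Sall4 73, Esrrb 288 and Utf1 1189 (0.847), while Klf4 had r = -0.577. These libraries share cDNA and differ mainly in tissue, so that r describes the contrast of CCE with FH.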

How the data were processed

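Total RNA depleted of ribosomal RNA was sequenced as single tags without strand in 16 libraries (CCE and FH, 14 RiboMinus, 2 Ribo-Zero), and 8 further samples were not analysed here. Bowtie (version not given in the sources used here) placed the tags on mm9, and the authors retained unique ones with up to 2 mismatches (36 nt) or 3 (51 nt) and deposited each as a line with its start and end. Tags over splice junctions were not mapped. The score column deposited by the authors was constant and not used. RiboMinus libraries held 920424 to 2473448 tags, the Ribo-Zero libraries 28708715 (CCE) and 48426051 (FH). Here tags were counted by midpoint in merged exons of GENCODE M1 and scaled to RPKM. Both locations of a preparation were summed. Groups came from the labels, and preparations and fragmentation from the labels and the study's lane list. Genes with at least 10 tags were tested with limma 3.58.1 (trended variance, log2(RPKM + 1), Benjamini-Hochberg over 16835 genes, threshold 0.05). Fold changes of low genes are understated on this scale. On simulated data, 103 of 104 genes changed 4-fold were recovered at an RPKM of at least 3, and 28 of 73 below it, with 3 and 8 unchanged genes called. The simulated counts were independent between preparations, with no effect of fragmentation and no shared depleted RNA. These rates thus do not carry over to the real preparations. Members and lists were chosen with earlier results of these data known. All members were named, with up to 4 genes per list and direction by size of difference (marker lists, the most abundant), except that a marker the rule would name is not reported here. Python 3.11.15 and R 4.3.3 were used. Other pseudocounts, filters, scalings, single locations and left-out preparations were tried.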

Additional observations from a re-analysis of the deposited data

Results flagged for a closer look

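Of 30 groups of preparations or libraries examined, 5 held a value far from the others, where chance gives about 1 in 20. That rate does not apply to 3 of them, in which a single tag stood among libraries with 0. Zfp42 was low in the sheared CCE1 preparation (RPKM 6.33), and Nanog was high in the Vienna library of the hydrolysed CCE2 preparation (RPKM 9.21). In FH, a single tag set Nanog apart in the Nijmegen library of the hydrolysed FH2 preparation (RPKM 0.209), and single tags did so for Utf1 (RPKM 0.385) and Tdgf1 (RPKM 0.246) in the Vienna library of the hydrolysed FH1 preparation.

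The ratio of FH to CCE for Klf4 was 0.987 in Ribo-Zero and 2.58 in RiboMinus. This difference was not tested, since Ribo-Zero has 1 library per tissue. A shift between kits was not particular to Klf4. For Esrrb, the pooled RiboMinus ratio of CCE to FH was 3.57 (2.67 to 4.86), while Ribo-Zero gave 20.6 (16.7 to 25.7). For Sall4, 42.7 (25.8 to 76.7) with RiboMinus stood against 142 (107 to 192) with Ribo-Zero. Both genes were higher in CCE by either kit. The intervals overlapped for Fgf4 and Tdgf1. These shifts were not tested either.

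Outside the genes counted for the members, CCE Ribo-Zero tags per unique tag exceeded those of FH at 6 near-copies, counting those where the lower bound of the exact 95% interval of the ratio was above 1. The locus on chromosome 15 resembling Zfp42 held 568, those on chromosomes 16 and 2 resembling Tdgf1 held 210 and 4, and that on chromosome 3 resembling Pou5f1 held 27. The locus on chromosome 2 resembling Dppa4 held 24 and that on the X chromosome resembling Nanog held 17. The 5 loci resembling Klf4 and that resembling Esrrb did not pass. Nor did that on chromosome 1 resembling Pou5f1 and those on chromosomes 18 and 7 resembling Dppa4. The intervals were not adjusted for the number of loci, and the lower bound for Tdgf1 on chromosome 2 was 1.11.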

How the results depend on the processing

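The 9 calls between FH and CCE kept their direction under all alternatives run, and the number of members called lay between 7 and 9. Of these members' values, 203 kept their side of the threshold and 2 did not. Klf4 was not called from Nijmegen libraries alone (1.28) nor Tdgf1 from Vienna libraries alone (-0.68), and Fgf4 and Tdgf1 were not tested when an RPKM over 3 was required; the causes were not tested. With a pseudocount of 0.1 or with voom on tag counts the log2 differences were larger, at -7.48 and -7.97 for Pou5f1, -6.33 and -6.50 for Zfp42, -5.51 and -5.80 for Nanog, -4.96 and -5.42 for Sall4, -4.33 and -3.98 for Utf1, -3.02 and -3.22 for Tdgf1, -2.70 and -3.34 for Fgf4 and -1.74 and -1.80 for Esrrb. Of the other pluripotency genes called, none changed direction, and calls were lost in at least 1 alternative for 5 of 8 naive factors, 4 of 12 stem cell enriched genes, 2 of 11 Nodal and Fgf genes, 2 of 8 primed genes (Cdh2 in 8 of 23 alternatives) and 1 of 5 LIF pathway genes. Leaving out each preparation gave 6673 to 8094 genes and 9 members called, against 8097 and 9. Scaling by tags in protein-coding exons put 34.5% of calls higher in CCE and median-of-ratios factors 40.8%, against 51.7%, with median log2 differences of all genes of 0.13, 0.06 and -0.10. The replicate block over 14 libraries called 8718 genes and 9 members. Replicate numbers 1 to 6 correlated at 0.27, 0.20, -0.11, -0.50, -0.26 and 0.39 and do not pair the samples. Crossing the hydrolysed numbers at Nijmegen called 7648. Summing the preparations of each depleted RNA by the listed numbers, added after seeing the data, called 10665 and 9 members. The ratio of Ribo-Zero to RiboMinus for Pou5f1 turned from 1.51 (pooled RiboMinus) to 0.816 (mean of preparations) with repeated starts counted once. The cause was not tested. CCE levels moved with the measure. Per reachable length, RPKM was 25.6 for Pou5f1, 15.02 for Nanog, 8.76 for Klf4, 22.0 for Zfp42, 3.45 for Tdgf1 and 1.31 for Dppa4. In coding exons it was 35.2 for Pou5f1, 10.7 for Nanog, 11.2 for Klf4, 15.6 for Zfp42, 6.04 for Esrrb, 0 for Tdgf1, 18.5 for Sall4 and 1.71 for Fgf4. With repeated starts counted once it was 21.2 for Pou5f1, 7.38 for Nanog, 10.3 for Zfp42 and 4.28 for Esrrb, and, within the SD of the preparations, 15.7 for Sall4, 7.51 for Klf4, 4.54 for Utf1, 1.46 for Tdgf1, 1.396 for Fgf4 and 0.311 for Dppa4. The Ribo-Zero library gave 26.8 for Pou5f1, 10.6 for Nanog, 2.82 for Klf4, 27.0 for Zfp42, 6.61 for Esrrb, 14.02 for Utf1, 6.62 for Tdgf1, 26.0 for Sall4, 1.499 for Dppa4 and 8.23 for Fgf4. Intron shares in CCE Ribo-Zero with repeated starts counted once were 1.71% for Pou5f1, 17.8% for Nanog, 43.1% for Zfp42, 28.7% for Esrrb, 19.5% for Tdgf1, 10.9% for Sall4 and 62.5% for Dppa4. Depth limits Dppa4, Tdgf1, Fgf4 and Utf1, which had 5 to 53 RiboMinus tags in CCE.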
